A study of Mus musculus with 6 samples.

Results

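Wnt signalling sets the zones of the liver lobule. Wnt proteins and R-spondins from the endothelium of the central vein act on the nearest hepatocytes, where beta-catenin is spared from destruction, binds TCF and LEF factors and switches on target genes. Many of these targets are themselves brakes on the pathway. The 10 genes described here are such targets and factors: Axin2, Nkd1, Notum, Rnf43 and Znrf3, which restrain Wnt signalling, the R-spondin receptor Lgr5, and the transcription factors Tbx3, Sp5, Lef1 and Tcf7. They were taken by gene symbol from a table of 54232 genes and selected on their levels and fold changes in an earlier look at these same libraries. Their differences between genotypes are therefore given as a description, without a test. All 10 were in the table, and 9 passed the filter on low counts, as did 13304 genes in all; Lef1 did not.

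The data are 3 liver libraries from mice without Nogo (Nogo-/-) and 3 from wild-type littermates, all 8 weeks old and fed normal chow. Nogo is the product of Rtn4, a protein that shapes the endoplasmic reticulum. The labels used here name neither the deleted exons nor the sex of the mice. They number the knockout libraries 1, 2 and 4 and the wild-type libraries 2, 4 and 11. They do not say whether each library came from a separate mouse, so a liver named below stands for 1 library. The samples are liver tissue, so fewer cells of a type and less RNA per cell cannot be told apart.

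Libraries held 17568223 to 20902369 counts. Levels are counts on a common library total (CPM) after scaling by the trimmed mean of M values (TMM). Rtn4 stood at 40.5 to 56.0 CPM in wild type against 4.63 to 8.22 CPM in knockout, and the 7 hepatocyte markers found in the table summed to 79942 to 116643 CPM over the 6 libraries. The share of counts on mitochondrially encoded genes was 6.17% to 6.90% in wild type against 28.6%, 19.7% and 11.8% in knockout 1, 2 and 4. Over all tested genes edgeR's quasi-likelihood test called 17.0% (Benjamini-Hochberg adjusted p under 0.05), with 8.76% higher and 8.29% lower in knockout. In 38.9% of the tested genes the genotypes did not overlap, the knockout being above in 19.7% and below in 19.2%.

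Of the 9 members tested, 3 were called, all higher in knockout (Sp5, Tbx3 and Axin2). Sp5 and Tbx3 were past the threshold in 6 of 6 fits that left out 1 library, and Axin2 in 2 of 6. Axin2 also missed it with scaling by library totals (edgeR adjusted p = 0.0605). The levels of 5 members did not overlap between genotypes, and all 5 were higher in knockout (Sp5, Tbx3, Axin2, Notum and Nkd1). Since the genes were chosen with this comparison known, nothing is read from these counts. The members did not move as one: Rnf43, Znrf3, Lgr5 and Tcf7 overlapped between the genotypes.

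The sequence just before the Sp5 and Axin2 start sites is shown because both genes were higher in knockout and because beta-catenin reaches its targets through TCF and LEF factors, whose core motif can be searched for there. The sequences are from RefSeq on GRCm38.p6 (mm10), plus strand, and span the 250 bases before the annotated start. Capitals mark a match to CTTTGAT or CTTTGAA.
Sp5, chr2:70474673-70474922: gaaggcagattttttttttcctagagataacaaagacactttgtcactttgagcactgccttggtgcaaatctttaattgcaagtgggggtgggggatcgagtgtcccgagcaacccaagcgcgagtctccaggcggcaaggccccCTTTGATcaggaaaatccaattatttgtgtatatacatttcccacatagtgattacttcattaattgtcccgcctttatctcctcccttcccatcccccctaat
Axin2, chr11:108920099-108920348: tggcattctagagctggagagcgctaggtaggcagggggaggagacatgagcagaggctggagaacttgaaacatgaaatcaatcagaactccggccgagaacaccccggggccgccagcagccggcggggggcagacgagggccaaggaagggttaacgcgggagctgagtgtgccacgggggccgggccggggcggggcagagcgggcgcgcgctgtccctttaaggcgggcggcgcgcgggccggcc

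Both strands were searched for CTTTGAT and CTTTGAA in windows of 300 bases, from 250 before the start to 50 after it. These motifs differ in the last base, so they cannot both match at the same position of a strand. Sp5 held 1 match, CTTTGAT on the plus strand, from 104 to 98 bases before its start. Windows were at hand for 6 members (11 windows, since a gene can have several starts), and Sp5 was the only one of the 6 with a match to CTTTGAT or CTTTGAA. Of all 32851 windows in the table, 8.65% held a match to either. The variants CTTTGTT and CTTTGTA were searched too and are not in capitals. Sp5 held CTTTGTT on the minus strand, 222 to 216 bases before its start. A Lef1 window held CTTTGTA on the minus strand, 147 to 141 bases before the start. Of all windows 5.85% held CTTTGTT and 3.63% held CTTTGTA. A match describes the letters in a window, and its absence in the Axin2 window says nothing about sites elsewhere in that gene.

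Sp5 and Tbx3, both transcription factors that Wnt signalling induces, had the largest fold changes of the 9 members fitted. Sp5 (ENSMUSG00000075304), which competes with related factors at Wnt target genes, spans bases 70474923 to 70477729 of chromosome 2, plus strand (mm10, as for all positions here). Its level was 1.23, 1.44 and 0.929 CPM in wild type 2, 4 and 11 against 3.24, 5.80 and 3.67 CPM in knockout 1, 2 and 4. Every knockout liver lay above every wild-type liver, and knockout 2 was highest. Few reads stand behind each level: 26, 27 and 20 counts in wild type against 49, 108 and 61 in knockout. Mean levels were 1.20 ± 0.257 and 4.24 ± 1.37 CPM (SD, n = 3 each), which is a log2 fold change of 1.82 with a standard error (SE) of 0.35.

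Tbx3 (ENSMUSG00000018604), a T-box repressor found in pericentral hepatocytes, spans bases 119670669 to 119684724 of chromosome 5, plus strand. Its level was 11.97, 8.75 and 13.2 CPM in wild type 2, 4 and 11 against 27.1, 39.7 and 35.4 CPM in knockout 1, 2 and 4. The lowest knockout liver was thus well above the highest wild-type liver. Mean levels were 11.3 ± 2.30 and 34.1 ± 6.43 CPM (SD, n = 3 each), and the log2 fold change was 1.59 with an SE of 0.22.

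An antisense transcript at the same locus, Tbx3os1, was also higher; it was looked at after its values were seen. Its exons share 115 bases with those of Tbx3 on the opposite strand, and with the strandedness of the counts unstated, reads in that stretch cannot be assigned to either gene. Tbx3os1 had 41, 42 and 44 counts in wild type 2, 4 and 11 against 151, 133 and 77 in knockout 1, 2 and 4. It rose by 1.80 on the log2 scale (SE 0.31, edgeR adjusted p = 0.00793), and stood at 1.16 with knockout 4 alone and 0.86 with the mitochondrial share as a covariate. Its knockout counts were lowest in knockout 4, whereas those of Tbx3 were lowest in knockout 1.

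**Figure D1:**
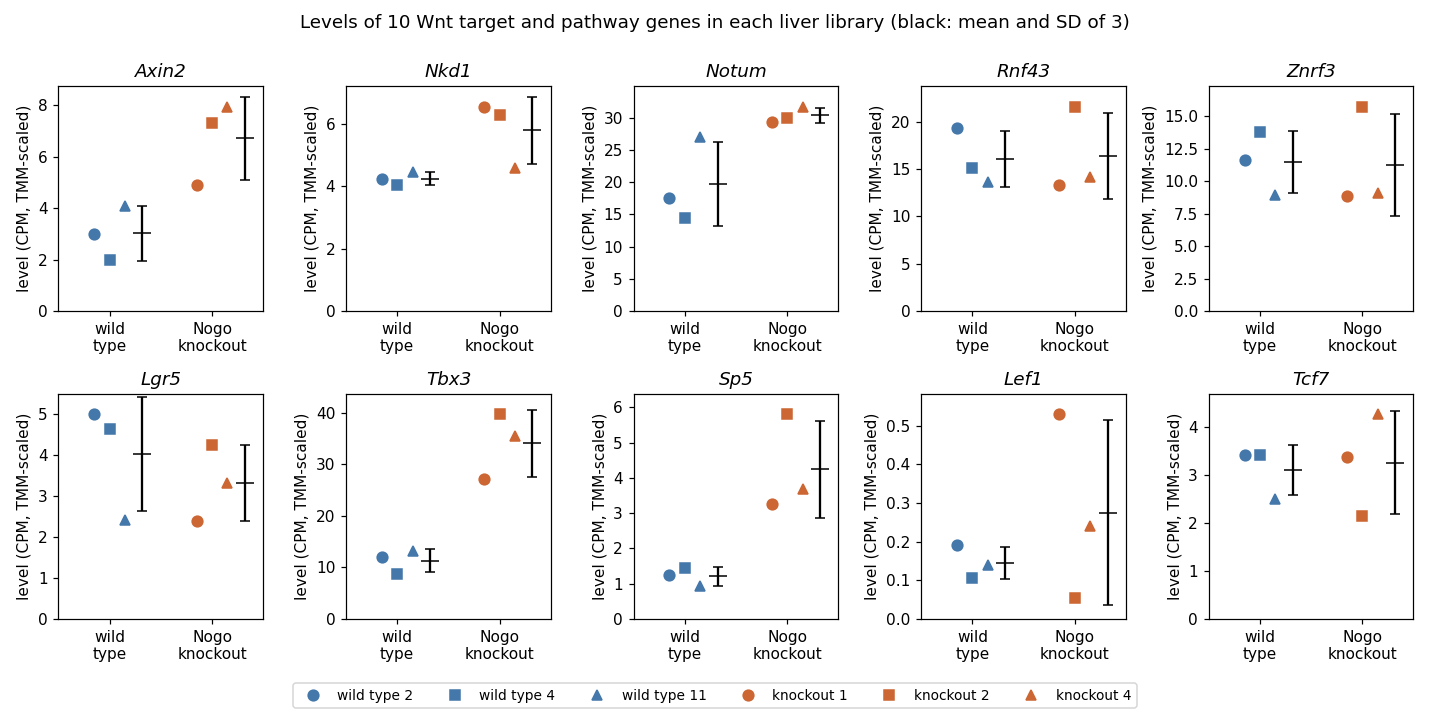
Levels of the 10 members in CPM after TMM scaling (vertical axes, each from 0) in the 3 wild-type (blue) and 3 knockout (orange) libraries, 1 point per library, with the mean and SD of each genotype in black. The points of the genotypes do not overlap for Sp5, Tbx3, Axin2, Notum and Nkd1 and overlap for the other members.

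Among the brakes on the pathway, Axin2 is the most widely used reporter of beta-catenin activity and encodes a scaffold of the complex that destroys beta-catenin. Its gene (ENSMUSG00000000142) spans bases 108920349 to 108950783 of chromosome 11, plus strand. Its level was 2.99, 1.97 and 4.09 CPM in wild type 2, 4 and 11 against 4.90, 7.30 and 7.94 CPM in knockout 1, 2 and 4. The gap between wild type 11 and knockout 1 was small beside the spread within each genotype. Mean levels were 3.02 ± 1.06 and 6.71 ± 1.60 CPM (SD, n = 3 each), and the log2 fold change was 1.15 with an SE of 0.31. Leaving out 1 library at a time gave log2 fold changes of 0.91 (without wild type 4) to 1.42 (without wild type 11), and scaling libraries by their totals gave 0.996.

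Notum, a secreted enzyme that inactivates Wnt proteins by removing their lipid, stood at 17.5, 14.5 and 27.0 CPM in wild type 2, 4 and 11 against 29.4, 30.0 and 31.7 CPM in knockout 1, 2 and 4. The knockout livers lay close together, just above wild type 11. The log2 fold change was 0.62 with an SE of 0.23, and 0.91 without wild type 11. It spans bases 120653788 to 120661175 of chromosome 11, minus strand (mm10). Its exons share 708 bases with the antisense gene Notumos, and 29.5% of its 50-base words occur in other genes on either strand, so its level is uncertain. Notumos itself had 26 to 36 counts in wild type against 19 to 49 in knockout.

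Nkd1, an inhibitor that binds Dishevelled (chromosome 8, bases 88521354 to 88594884, plus strand), ranged from 4.05 to 4.46 CPM in wild type and stood at 6.56, 6.28 and 4.57 CPM in knockout 1, 2 and 4. The knockout liver nearest to wild type was the one with the lowest mitochondrial share. The log2 fold change was 0.45 (SE 0.24), and 0.11 with knockout 4 alone against the 3 wild types.

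The paired ubiquitin ligases Rnf43 and Znrf3, which remove Wnt receptors from the cell surface and are themselves held in check by R-spondins and their LGR receptors, showed levels that crossed between genotypes. Rnf43 stood at 19.3, 15.1 and 13.6 CPM in wild type 2, 4 and 11 against 13.3, 21.6 and 14.2 CPM in knockout 1, 2 and 4. The log2 fold change was 0.03 with an SE of 0.23. Znrf3 stood at 11.6, 13.8 and 8.96 CPM in wild type against 8.87, 15.7 and 9.09 CPM in knockout, with a log2 fold change of −0.02 and an SE of 0.27. Rnf43 spans bases 87662722 to 87735539 of the plus strand and Znrf3 bases 5276324 to 5444847 of the minus strand, both on chromosome 11. For both ligases knockout 2 was the highest of the 6 livers and knockout 1 the lowest. The sign of either difference turned with the libraries and scaling used: Rnf43 ranged from −0.22 to 0.18 and Znrf3 from −0.35 to 0.12 over 16 other fits.

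Lgr5, the R-spondin receptor that marks pericentral hepatocytes (chromosome 10, bases 115450311 to 115587780, minus strand), stood at 4.99, 4.64 and 2.42 CPM in wild type 2, 4 and 11 against 2.38, 4.24 and 3.31 CPM in knockout 1, 2 and 4. Wild type 11 and knockout 1 were almost equal at the low end. The log2 fold change was −0.27 with an SE of 0.34, so these libraries do not fix the direction.

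Tcf7 and Lef1 are TCF and LEF factors, through which beta-catenin acts on DNA, and Lef1 was the lowest of the 10 members. Tcf7 lies on the minus strand of chromosome 11 (bases 52252371 to 52283014) and Lef1 on the plus strand of chromosome 3 (bases 131110471 to 131224356). Tcf7 stood at 3.42, 3.41 and 2.51 CPM in wild type 2, 4 and 11 against 3.38, 2.15 and 4.27 CPM in knockout 1, 2 and 4, with a log2 fold change of 0.07 (SE 0.32). Lef1 had 4, 2 and 3 counts in wild type against 8, 1 and 4 counts in knockout. The exact 95% Poisson interval of the highest of these, 8 counts, runs from 3.45 to 15.8, and that of the lowest, 1 count, from 0.0253 to 5.57; such intervals cover counting error only. A difference in Lef1 was not detectable at this depth.

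Lef1 and Tcf7 are also known as T cell factors, and T cell markers differed between the genotypes. Of 16 such markers 9 were tested, 3 rose (Trac, Trbc1 and Trbc2) and 0 fell. At an unadjusted p under 0.05, 7 were higher and 0 lower, and 2 rose and 0 fell with DESeq2. Other genes hold 40.5% of the 50-base words of Trbc1 and 44% of those of Trbc2. The levels of both are therefore uncertain, and their rises may not be separate. Those called are 33.3% of the tested T cell markers, against 17.0% of all tested genes. The summed level of the T cell markers was 4.43 to 8.87 CPM in wild type against 12.6 to 21.3 CPM in knockout, and Cd5 was at 0 in knockout 1 and 4. Of 8 B cell markers 6 rose and 0 fell (8 higher and 0 lower at an unadjusted p under 0.05; 6 and 0 with DESeq2), with sums of 14.3 to 21.4 and 31.3 to 73.2 CPM and no marker at 0. Of the B cell markers 75% were thus called. The part of T and B cells in the values of Lef1 and Tcf7 was not tested.

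Per kilobase of exon, which allows genes to be compared, wild-type levels of the members spanned a wide range. Notum was highest at 8.18 CPM per kb, and its range over the libraries (6.02 to 11.2) lay above all others. Rnf43 followed at 2.44 and did not overlap its neighbour Tbx3 at 1.71. From Tbx3 through Znrf3 (1.45), Tcf7 (1.19) and Nkd1 (0.932), each gene overlapped the next. Sp5 (0.572), Axin2 (0.548) and Lgr5 (0.391) formed a lower chain of overlapping ranges, and Lef1 was lowest at 0.0165 CPM per kb. In knockout liver Tbx3 stood next to Notum at 5.15 CPM per kb, above Rnf43 at 2.50, followed by Sp5 at 2.02.

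Ratios between members within a library do not depend on how libraries are scaled; the pairs were picked after the values were seen. There were 0.106, 0.105 and 0.104 counts of Sp5 for each count of Znrf3 in wild type 2, 4 and 11, against 0.366, 0.369 and 0.404 in knockout 1, 2 and 4. The spread within either genotype was small beside the gap between them. The wild-type ratios rest on 26, 27 and 20 counts of Sp5, too few to fix a ratio as closely as they lie together. Tbx3 per Lgr5 was 2.40, 1.89 and 5.46 in wild type against 11.4, 9.37 and 10.7 in knockout. Axin2 per Rnf43 ranged from 0.130 to 0.300 in wild type, and from 0.338 to 0.559 in knockout. Notum per Znrf3 overlapped, with 1.05 to 3.02 in wild type against 1.91 to 3.49 in knockout.

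**Figure D2:**
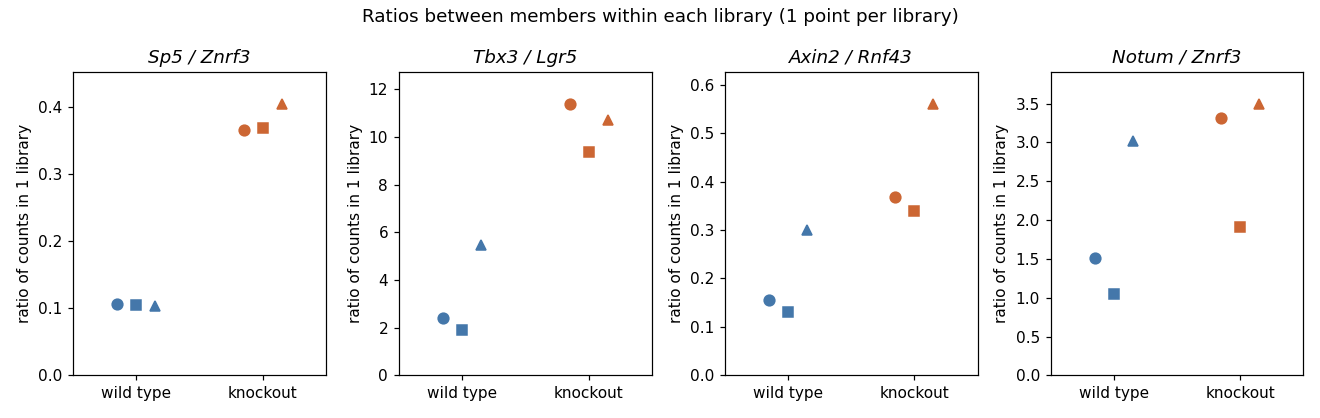
Ratios of the counts of pairs of members within each library (vertical axes, from 0), 1 point per library, for wild type (blue) and knockout (orange). Sp5 per Znrf3 lies between 0.104 and 0.106 in wild type and between 0.366 and 0.404 in knockout, while Notum per Znrf3 overlaps. The wild-type Sp5 ratios rest on 20 to 27 counts, and counting error is not drawn.

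The difference in mitochondrial share runs with genotype, so values were set beside it. With knockout 4 alone, the knockout liver with the lowest share (11.8%), the log2 fold changes were 1.65 for Tbx3, 1.61 for Sp5, 1.39 for Axin2 and 0.69 for Notum, beside 1.59, 1.82, 1.15 and 0.62 from all 6 libraries. With the share as a covariate they were 1.88 for Tbx3, 1.995 for Sp5, 1.65 for Axin2, 0.69 for Notum and 0.03 for Nkd1. In that fit edgeR called 0 of the 13304 genes (1146 at an unadjusted p under 0.05; no other tool was run with it). With totals in place of TMM the median over all genes went from 0.01 to −0.16, and there Tbx3 was at 1.44 and Sp5 at 1.67.

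**Figure D3:**
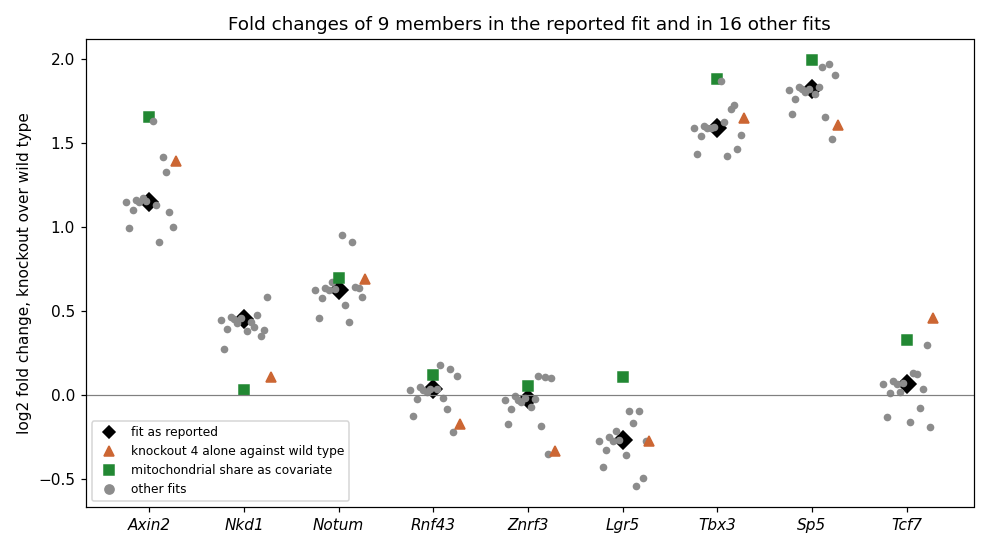
Log2 fold change of the 9 tested members (vertical axis) in the reported fit (black) and in 16 other fits, with knockout 4 alone (orange) and the mitochondrial share as a covariate (green) marked. Tbx3 lies between 1.43 and 1.88 and Sp5 between 1.52 and 1.995, whereas Rnf43, Znrf3, Lgr5 and Tcf7 lie on both sides of 0.

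The other genes of the pathway were read from 5 lists by role. Of 92 genes listed, 91 were in the table and 54 passed the filter; 2 rose and 3 fell. This is 9.26% called, below the 17.0% of all tested genes. The median log2 fold change of the 54 was 0.03, beside 0.01 for all tested genes. With scaling by library totals 1 rose and 4 fell.

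The clearest change among them was in beta-catenin itself. Ctnnb1, the gene of beta-catenin, stood at 122.8, 121.5 and 112.2 CPM in wild type 2, 4 and 11 against 26.4, 38.0 and 49.4 CPM in knockout 1, 2 and 4. All knockout livers were far below all wild-type livers, and the liver with the largest mitochondrial share was lowest. Mean levels were 118.8 ± 5.80 and 37.9 ± 11.5 CPM (SD, n = 3 each), and Ctnnb1 fell by 1.65 on the log2 scale (SE 0.23, edgeR adjusted p = 0.00445). It was past the threshold in 6 of 6 fits that left out 1 library. The fold change was −1.27 with knockout 4 alone and −0.97 with the mitochondrial share as a covariate. Ctnnb1 mRNA was thus lower in the same livers in which Tbx3, Sp5 and Axin2 were higher; the protein was not measured. Of the 15 other tested genes of its destruction complex and upstream switch, 0 rose and 0 fell with edgeR (1 higher and 2 lower at an unadjusted p under 0.05; DESeq2 called 1, higher). Apc, the largest scaffold of that complex, was at −0.22 (SE 0.21).

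Wnt ligands were low. Of 25 ligands, R-spondins and secretion factors 9 passed the filter, and 0 rose and 0 fell with edgeR (1 at an unadjusted p under 0.05; DESeq2 called 1, higher). Wnt2, a ligand of the liver endothelium, stood at 2.37, 0.693 and 2.65 CPM in wild type 2, 4 and 11 against 3.05, 2.04 and 1.20 CPM in knockout 1, 2 and 4. Wnt9b, the ligand of the central vein, ranged from 1.17 to 1.35 CPM in wild type against 1.56 to 1.85 CPM in knockout, a log2 fold change of 0.49 (SE 0.33). Rspo3, the R-spondin of the central vein, was at −0.08 (SE 0.37). Wnt4 had the smallest p of the list, with 1.28 to 1.67 CPM in wild type against 4.37, 2.90 and 1.93 CPM in knockout 1, 2 and 4 (log2 fold change 1.11, SE 0.37, edgeR adjusted p = 0.0618, and 0.0172 without knockout 4). The log2 fold change of Wnt4 was 0.45 with knockout 4 alone and 0.09 with the mitochondrial share as a covariate. Porcn, which lipidates Wnt proteins for secretion, was at 0.49 (SE 0.26).

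Endothelial cells are the known source of these ligands. Of 12 tested endothelial markers 0 rose and 4 fell (Lyve1, Oit3, Kdr and Clec4g; 0 higher and 6 lower at an unadjusted p under 0.05, and 0 and 4 with DESeq2). Of all tested genes 17.0% were called, against 33.3% of these markers. Their summed level was 219.0 to 286.9 CPM in wild type against 216.6, 163.3 and 126.8 CPM in knockout 1, 2 and 4, and no marker was at 0. The part of this difference in the ligand values was not tested.

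Among 10 tested receptors 2 fell and 0 rose (0 higher and 2 lower at an unadjusted p under 0.05; 0 and 2 with DESeq2). The receptors called are 20% of those tested, against 17.0% of all tested genes. Lrp5, one of the paired co-receptors that bind Wnt beside Frizzled, went from 38.7, 39.6 and 45.7 CPM in wild type 2, 4 and 11 to 18.5, 20.0 and 24.0 CPM in knockout 1, 2 and 4. It fell by 0.99 on the log2 scale (SE 0.18, edgeR adjusted p = 0.00831) and was past the threshold in 6 of 6 fits that left out 1 library. The closely related co-receptor Lrp6 was at −0.31 (SE 0.20). The Frizzled receptor Fzd8 fell by 0.65 (SE 0.20, edgeR adjusted p = 0.0484), but missed the threshold without wild type 2 (adjusted p = 0.193), wild type 4 (0.0985), wild type 11 (0.071), knockout 1 (0.133) or knockout 2 (0.147), and stood at −0.36 both with knockout 4 alone and with the mitochondrial covariate. Lgr4, the R-spondin receptor found on all hepatocytes, was at 0.09 (SE 0.18). Of 15 secreted and membrane antagonists found in the data, 4 passed the filter, and 0 rose and 0 fell (0 at an unadjusted p under 0.05; 0 with DESeq2); Sfrp1 was at 0.96 (SE 0.48) and Kremen1 at −0.27 (SE 0.20).

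In the nucleus, 2 of 15 tested cofactors rose and 0 fell (4 higher and 2 lower at an unadjusted p under 0.05; 2 rose and 1 fell with DESeq2). The cofactors called are 13.3% of those tested, below the 17.0% of all tested genes. Tle2, a Groucho corepressor that binds TCF factors, went from 5.46, 5.07 and 5.81 CPM in wild type 2, 4 and 11 to 18.2, 12.4 and 10.5 CPM in knockout 1, 2 and 4. It rose by 1.33 on the log2 scale (SE 0.24, edgeR adjusted p = 0.00894) and passed in 6 of 6 fits that left out 1 library, with 0.64 under the mitochondrial covariate. Bcl9, a coactivator that binds beta-catenin, rose by 0.91 (SE 0.26, edgeR adjusted p = 0.0392), but not without wild type 2 (adjusted p = 0.0758), wild type 4 (0.157), wild type 11 (0.0894), knockout 1 (0.107) or knockout 2 (0.0814). Tcf7l2, the main TCF factor of hepatocytes, was at 0.13 (SE 0.20).

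**Figure D4:**
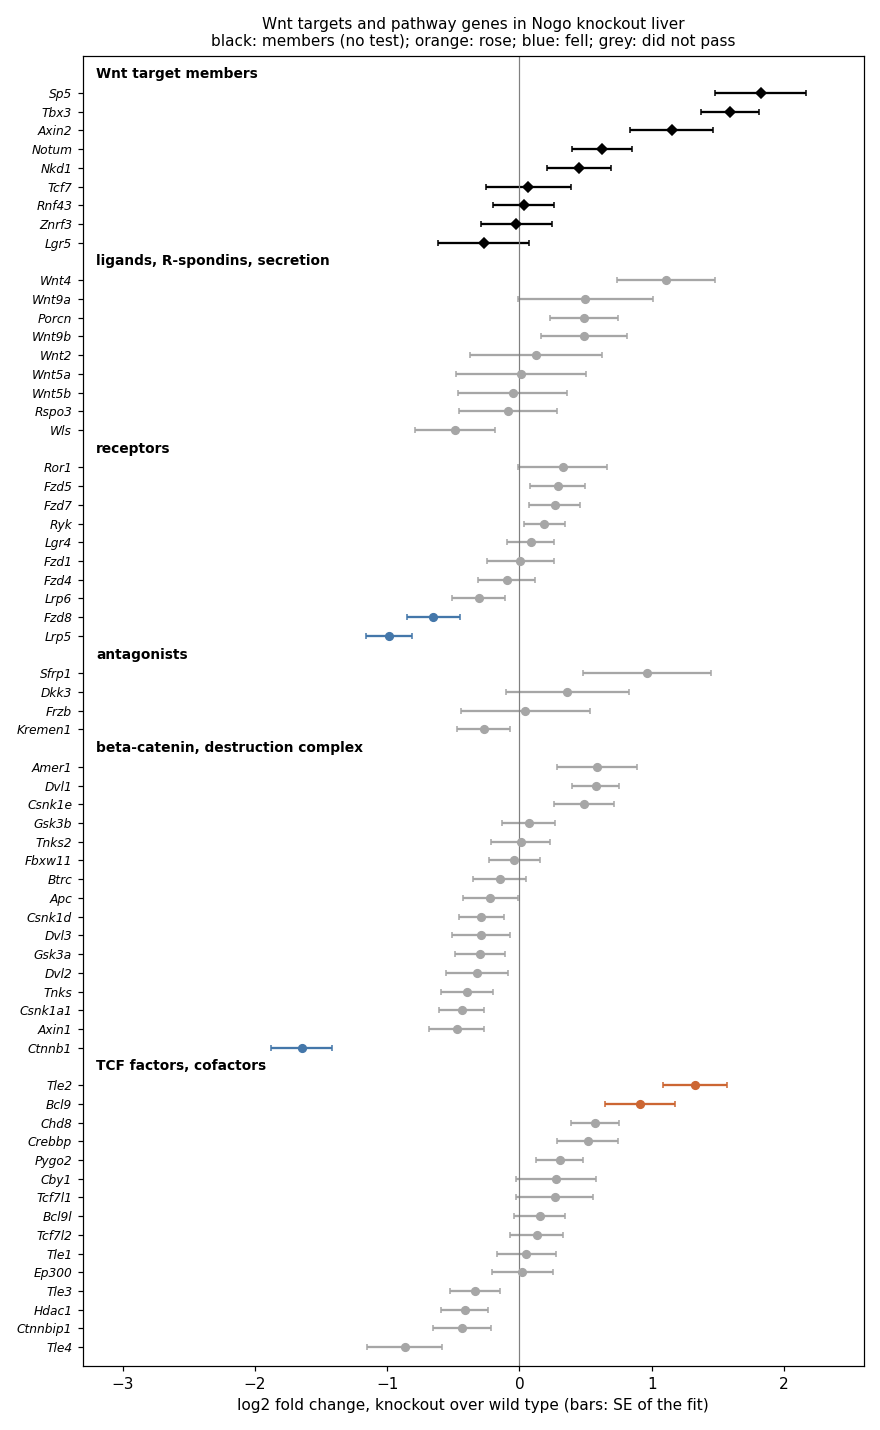
Log2 fold change of knockout over wild type (horizontal axis, bars are SE of the fit) for the 9 tested members (black, no test) and the 54 tested genes of the pathway by role, coloured where they rose (orange) or fell (blue). Ctnnb1 at −1.65 and Lrp5 at −0.99 stand at the low end, while Tle2 at 1.33 stands at the high end of the tested pathway genes.

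Of 10 tested genes known as direct Wnt targets in other tissues, 5 had a positive and 5 a negative log2 fold change. Called were 1 rise and 2 falls, which is 30% against 17.0% of all tested genes. Myc, a growth regulator, went from 12.9, 19.8 and 15.3 CPM in wild type 2, 4 and 11 to 2.91, 2.04 and 2.41 CPM in knockout 1, 2 and 4. It fell by 2.71 on the log2 scale (SE 0.25, edgeR adjusted p = 0.00172) and passed in 6 of 6 fits that left out 1 library. The cell cycle gene Ccnd1 fell by 1.05 (SE 0.23, edgeR adjusted p = 0.016), with adjusted p = 0.055 without wild type 4 and 0.053 without knockout 1, and a fold change of −0.60 with the mitochondrial covariate. Id2, an inhibitor of helix-loop-helix factors, rose by 1.05 (SE 0.28, edgeR adjusted p = 0.0296), but not without wild type 2 (adjusted p = 0.11), wild type 4 (0.0846), wild type 11 (0.0584), knockout 1 (0.0803) or knockout 2 (0.103), and it stood at 0.34 with knockout 4 alone and 0.52 with the covariate.

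The enzymes that beta-catenin is known to maintain around the central vein did not follow Tbx3, Sp5 and Axin2 as a group. Of 28 tested pericentral genes 1 rose and 3 fell, 14.3% against 17.0% of all tested genes. With scaling by library totals 0 rose and 5 fell. More were lower than higher at an unadjusted p under 0.05 (8 and 4), and DESeq2 called 5 falls and 2 rises. All knockouts lay below all wild types in 9 of the 28 genes and above in 1, against 19.2% and 19.7% of all tested genes. The median log2 fold change was −0.15, and 0.08 with the mitochondrial share as a covariate. Glul, the glutamine synthetase of the innermost hepatocytes, stood at 804.5, 938.3 and 775.9 CPM in wild type 2, 4 and 11 against 647.0, 1059 and 816.1 CPM in knockout 1, 2 and 4. The genotypes overlapped, with a log2 fold change of 0.00 and an SE of 0.22. Cyp1a2, a drug-metabolising cytochrome, was at 0.25 (SE 0.20) and the aminotransferase Oat at 0.21 (SE 0.19).

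Cyp2e1, the ethanol-metabolising cytochrome, stood at 6171, 6356 and 6602 CPM in wild type 2, 4 and 11 against 2467, 2414 and 5766 CPM in knockout 1, 2 and 4. Knockout 4, the liver with the lowest mitochondrial share, was near wild type while the other knockouts were far below. The log2 fold change was −0.85 (SE 0.33, edgeR adjusted p = 0.0975, and 0.000422 without knockout 4), −0.14 with knockout 4 alone and 0.02 with the mitochondrial share as a covariate. Cyp2c29, another cytochrome, was also highest among the knockouts in knockout 4, with 1132, 1153 and 1323 CPM in wild type against 134.7, 186.6 and 443.6 CPM in knockout 1, 2 and 4. It fell by 2.24 on the log2 scale (SE 0.38, edgeR adjusted p = 0.00758), with −1.44 for knockout 4 alone and −1.05 with the covariate.

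The retinaldehyde-oxidising enzyme Aldh1a1 fell by 1.32 (SE 0.29, edgeR adjusted p = 0.0153), with adjusted p = 0.0566 without knockout 1 and 0.0559 without knockout 2. It stood at −0.71 with knockout 4 alone and −0.49 with the covariate. The transporter Slco1b2 fell by 0.71 (SE 0.20, edgeR adjusted p = 0.0369), but not without wild type 2 (adjusted p = 0.139), wild type 4 (0.157), knockout 1 (0.11) or knockout 2 (0.089). Lhpp, a phosphatase, rose by 0.67 (SE 0.17, edgeR adjusted p = 0.0268), but not without wild type 2 (adjusted p = 0.148), wild type 4 (0.0995), wild type 11 (0.053), knockout 1 (0.0664) or knockout 2 (0.0514).

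Genes of the opposite, periportal zone also split. Of 24 tested 2 rose and 2 fell, 16.7% against 17.0% of all tested genes, with a median of 0.08 (1 rose and 3 fell with scaling by library totals). That median was 0.27 with the mitochondrial share as a covariate, 0.29 with knockout 4 alone and −0.17 without knockout 4. Cyp2f2, the marker cytochrome of that zone, stood at 1057, 982.3 and 1017 CPM in wild type 2, 4 and 11 against 720.1, 679.5 and 1365 CPM in knockout 1, 2 and 4. Wild type thus lay between knockout 4 and the other knockouts, and the log2 fold change was −0.14 (SE 0.27, edgeR adjusted p = 0.737, but 0.0195 at −0.55 without knockout 4, and 0.42 on the log2 scale with knockout 4 alone). Hsd17b6 rose by 0.69 (SE 0.18, edgeR adjusted p = 0.0257), but not without wild type 2 (adjusted p = 0.128), wild type 4 (0.108), wild type 11 (0.0617) or knockout 1 (0.069). Hsd17b13, a lipid droplet enzyme, fell by 0.94 (SE 0.25, edgeR adjusted p = 0.032), but not without wild type 2 (adjusted p = 0.0781), wild type 4 (0.101), wild type 11 (0.0649), knockout 1 (0.106) or knockout 2 (0.103), and it stood at −0.41 with knockout 4 alone and −0.20 with the covariate. Cps1, which starts the urea cycle, fell by 1.52 (SE 0.29, edgeR adjusted p = 0.0102; −0.95 with knockout 4 alone, −0.83 with the covariate), and the growth factor Igf1 rose by 1.45 (SE 0.24, edgeR adjusted p = 0.00697; 0.92 with knockout 4 alone, 0.69 with the covariate).

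**Figure D5:**
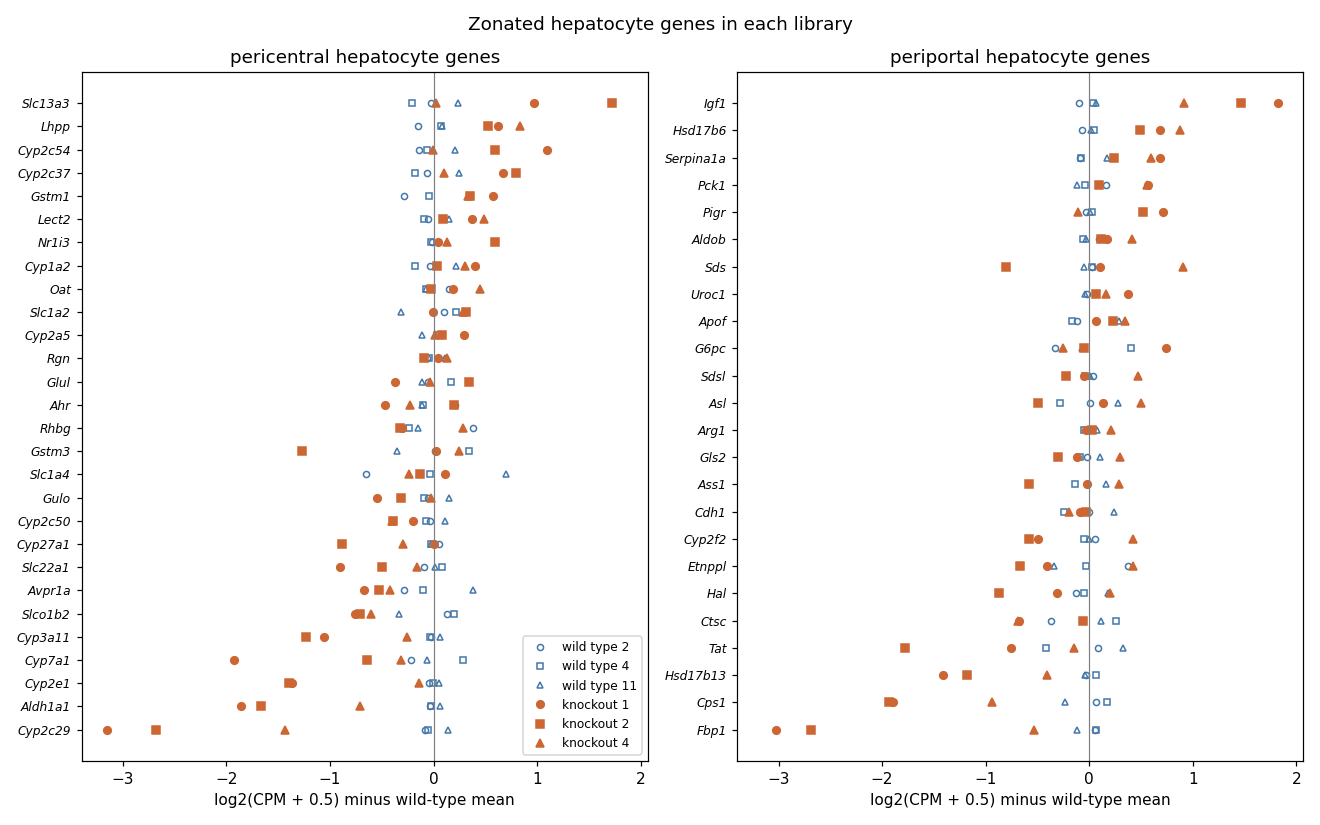
Difference of each library from the wild-type mean on the scale of log2(CPM + 0.5) (horizontal axis) for 28 pericentral and 24 periportal genes, with wild type in open blue and knockout in filled orange symbols. Rgn sits near 0 in all knockouts and Glul on both sides of 0, whereas Cyp2c29, Aldh1a1, Cyp2e1 and, in the other zone, Cps1 lie lower in knockout 1 and 2 than in knockout 4.

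Likeness to other genes was measured as Pearson's r of log2 CPM over the 6 libraries, which share 2 genotypes, so any gene that differs by genotype scores high. Tbx3 was most like Psme2 (0.997), Gpatch3 (0.996) and Rab11b (0.995), with 120 genes above 0.95. Sp5 was most like Efhd2 (0.987) and Axin2 most like Camta1 (0.994). These values are descriptions over 6 points, given without a test.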

How the data were processed

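The authors deposited raw counts per gene for 6 liver libraries, as whole numbers with no normalization. The submitters' processing notes name mm10 as the build. Aligner, counter, annotation, strandedness and the handling of multiply matching reads: not given in the sources used here. Total RNA (Qiagen RNeasy) went into SMARTer mRNA libraries, per the labels' protocols. The labels give 3 libraries of each genotype but do not say whether each came from a separate mouse, so the p-values reflect only how these libraries vary, which may in part be technical. Within a genotype, the chi-square per degree of freedom between libraries was 21.0 to 170.6, so each counted as 1 sample.

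Counts were tested in R 4.3.3 with edgeR 4.0.16 (quasi-likelihood F test, TMM, filterByExpr, no covariate), two-sided, with Benjamini-Hochberg adjustment over all 13304 tested genes and a threshold of 0.05. Each SE was derived as |log2 fold change| over the root of the F statistic. Knockout is always set over wild type, with "rose" and "fell" used of called genes alone. A floor of 3 counts equals 0.139 to 0.199 CPM. Positions, exon lengths and 50-base words came from GENCODE M21 (mm10).

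The members and all lists were chosen with earlier results of these data known. Besides the members, genes named always were Ctnnb1, Tcf7l2, Apc, Wnt2, Wnt9b, Rspo3, Lgr4, Glul, Cyp2e1, Cyp1a2, Oat, Cyp2f2 and Rtn4. Of each list up to 4 called genes with the smallest p were named, or 2 where none was called, and for each tested member the 3 most similar genes, of which a part is printed. Lrp6, Rgn and Tbx3os1 and the cell type markers were named after their values were seen. Of the other markers, 10 for Kupffer cells and 9 for stellate cells gave 0 calls (0 and 3 at an unadjusted p under 0.05; 0 and 2 with DESeq2), 7 for hepatocytes 0 (1; 1) and 6 for cholangiocytes 1 fall. For cholangiocytes this is 16.7% called, against 17.0% of all tested genes. Alternatives were DESeq2 1.42.0, limma-voom 3.58.1, other scalings and filters, mitochondrial genes removed or as a covariate, a replicate block and libraries left out.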

Additional observations from a re-analysis of the deposited data

How the results depend on the processing

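Over 16 other fits of the same libraries the log2 fold changes ranged from 1.43 to 1.88 for Tbx3, 1.52 to 1.995 for Sp5 and 0.91 to 1.65 for Axin2, as a description of genes selected on these values. Under the mitochondrial covariate the edgeR count was 0 genes (1146 at an unadjusted p under 0.05), and so 0 members (3), 0 other pathway genes (4), 0 pericentral (2) and 0 periportal genes (3). With knockout 4 alone, where knockout is assumed to vary like wild type, it called 25 genes, 0 members (3 at an unadjusted p under 0.05), 0 pathway genes (12), 1 pericentral gene and 0 periportal genes (12). No other tool was run in either fit. The cause was not tested. DESeq2 called 8 pathway and 7 pericentral genes, against 5 and 4, and without the low-count filter 8 pericentral genes were called. Scaling by library totals gave 690 rises and 1566 falls, against 1165 and 1103. Leaving out 1 library gave 630 (without wild type 4) to 4046 (without knockout 4) called genes, 2 to 4 members, 3 to 9 pathway genes, 1 to 11 pericentral and 2 to 8 periportal genes; the highest of each, other than members, came without knockout 4. The genotypes share the replicate numbers 2 and 4, but nothing says that a number pairs mice, and the deviations of same-numbered libraries correlated at −0.06 (number 2) and 0.07 (number 4). With the replicate block 1686 genes were called, against 2268, with 4 members, 4 pathway, 3 pericentral and 3 periportal genes. Of the called pathway, target and zonation genes named in the text, none changed direction in these fits; single cell type markers were not refitted.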
